A study of Mus musculus with 6 samples.

Results

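The genes described here are 10 members of transforming growth factor beta (TGF-beta) and bone morphogenetic protein (BMP) signalling in the mouse retina, with the Id genes that this signalling acts on. They are the ligand genes Tgfb1, Tgfb2, Tgfb3, Bmp4 and Inhba, the receptor genes Tgfbr1 and Tgfbr2, and Id1, Id2 and Id3. They were chosen by name, as all probe sets assigned to 1 of these symbols alone, which gave 21 of the 45037 probe sets on the array and 10 of the 18193 genes. A probe set is a group of short oligonucleotides that together read 1 transcript or, for some probe sets, several.

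RNA of whole retinas was measured on 6 Affymetrix arrays. The mice were BALB/c, an inbred strain without pigment in the eye. In the dark adapted group (3 arrays) the mice spent 1 week in the dark. The light damaged group (3 arrays) had the same week of darkness, followed by 6 h of white fluorescent light at 6000 lux, and retinas were collected 24 h after the damage. The labels give no age or sex, and do not say that replicates are separate animals, so p-values cover only the variation among these samples, part or all of which may be technical. The comparison addresses how retinal RNA levels differ after light damage. Values are log2 expression values from RMA (robust multi-array average), with array medians between 6.15 and 6.18. Upper quartiles lay between 7.41 and 7.67, with replicate 1 the highest in both groups. Precision is limited throughout by the small number of arrays.

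As background, ligands of the TGF-beta superfamily are secreted proteins that bind pairs of type I and type II receptor kinases. The receptors phosphorylate Smad proteins, which enter the nucleus and change transcription. The 3 TGF-beta ligands and activins, dimers of the Inhba product, act mainly through Smad2 and Smad3, and BMPs through Smad1, Smad5 and Smad9. Id proteins lack a DNA-binding region and hold back basic helix-loop-helix transcription factors by pairing with their partners, and Id1 and Id3 are classical targets of BMP signalling. In the eye TGF-beta 2 is the TGF-beta form usually described as prevalent.

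The bases before the transcription start are shown for Tgfb2, the ligand gene that differed between the groups, and for Id2 and Id3, so that their Smad motifs can be set side by side. The sequences are from RefSeq (GRCm38.p6) and cover the 250 bases before the start, 5′ to 3′ on the strand of the gene. They lie at chr1:186705990-186706239 (minus strand) for Tgfb2, chr12:25096093-25096342 (minus strand) for Id2 and chr4:136143572-136143821 (plus strand) for Id3. Capitals mark matches to the motifs searched on both strands, which were CAGAC (or GTCTG on the other strand), bound by Smad proteins, GGCGCC, a GC-rich Smad motif of BMP-responsive genes, TTCNNNGAA, bound by STAT proteins, and TGACGTCA, the cyclic AMP response element.
Tgfb2: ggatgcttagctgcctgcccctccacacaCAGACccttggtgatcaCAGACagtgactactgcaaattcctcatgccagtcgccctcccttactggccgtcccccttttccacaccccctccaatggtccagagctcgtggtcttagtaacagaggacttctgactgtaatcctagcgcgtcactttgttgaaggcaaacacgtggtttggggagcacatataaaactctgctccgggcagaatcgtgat
Id2: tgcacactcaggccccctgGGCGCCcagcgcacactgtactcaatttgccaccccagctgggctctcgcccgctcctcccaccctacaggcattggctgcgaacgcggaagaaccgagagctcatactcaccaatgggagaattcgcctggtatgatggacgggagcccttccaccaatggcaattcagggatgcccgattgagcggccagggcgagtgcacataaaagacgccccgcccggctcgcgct
Id3: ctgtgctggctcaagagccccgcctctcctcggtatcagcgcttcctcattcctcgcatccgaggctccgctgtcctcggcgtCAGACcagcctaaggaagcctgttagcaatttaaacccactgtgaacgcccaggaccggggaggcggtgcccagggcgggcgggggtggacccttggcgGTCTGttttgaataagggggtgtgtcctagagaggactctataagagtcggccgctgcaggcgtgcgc

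Tgfb2 held CAGAC at 2 places, which begin 221 and 204 bases before the start. Id3 held 2 matches as well, at 167 and 68 bases, and Id2 held GGCGCC at 231 bases. None of the 3 sequences held TTCNNNGAA or TGACGTCA. In all, 8 of the 10 members had an entry, with 9 promoters, and Id1 and Tgfb3 had none. CAGAC or GTCTG was present in 4 of the 9, and in 42.2% of all 32851 promoters of this length. GGCGCC was present in 2 of the 9, against 9.59% of all, and the other motifs in 0, against 7.02% for TTCNNNGAA and 1.55% for TGACGTCA. A match is a stretch of letters and not evidence of binding.

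Light damaged retinas carried more Tgfb2 and Id1 RNA, each about 2 times the dark adapted level, while the other ligand, receptor and Id genes did not pass the test. Of the 10 members 2 rose and 0 fell (limma, adjusted p under 0.05 over all genes; at an unadjusted p under 0.05 the counts were again 2 and 0, where 11% of all genes had such a p). That is 20% of the members, where 2.01% of all genes were called and 1.74% called higher. The members were chosen with earlier results of these data known, so this share is a description. In whole retina, more cells of a type and more RNA per cell cannot be told apart. The same 2 genes were called with the replicate number as a block, a fit that called 8.87% of all genes. The 2 calls depend on the scaling and the probe sets, as given below. The median change was 0.12 over the members and 0.03 over all genes, on the log2 scale. By class the medians were 0.11 for the 5 ligands, 0.09 for the 2 receptors and 0.31 for the 3 Id genes, with 1, 0 and 1 called. Changes were positive in 9 of the 10 members and in 57% of all genes. After each array was centred on reference genes, whose own mean change was 0.39, only Tgfb2 and Id1 of the members kept a positive change.

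**Figure D1:**
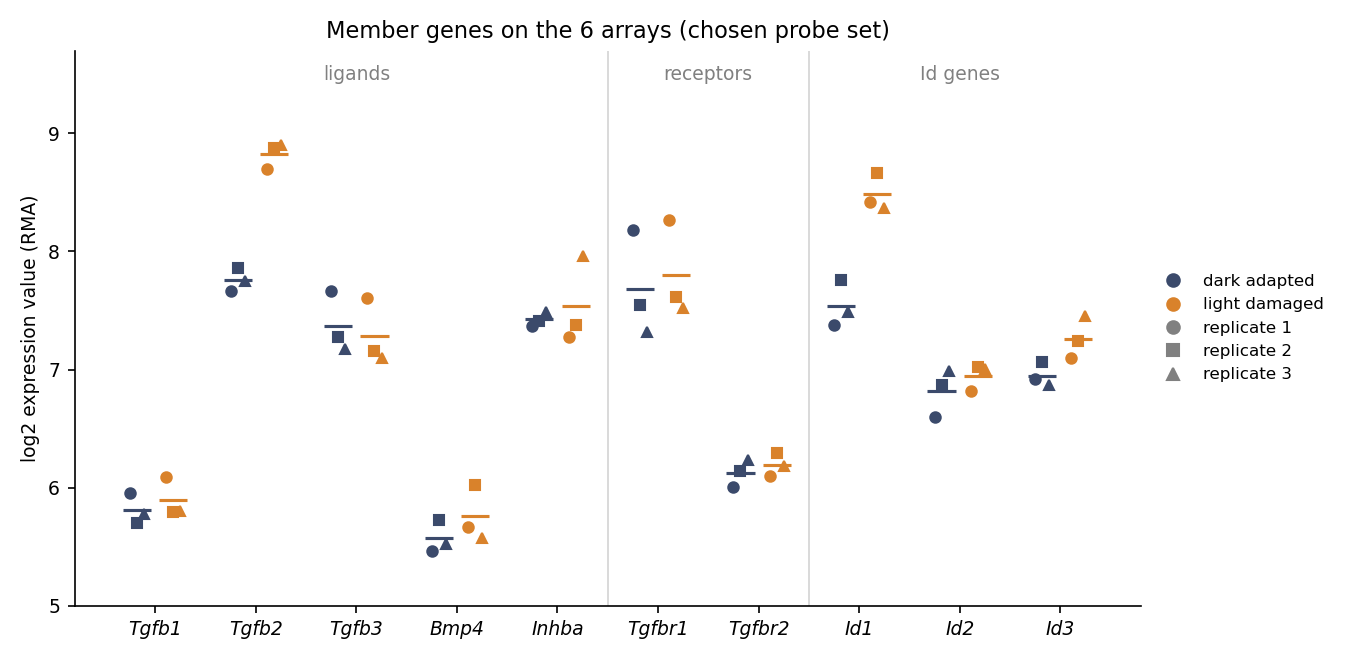
Log2 expression value (RMA, y axis) of each member gene on the 6 arrays, by the probe set with the highest mean, with dark adapted arrays in blue, light damaged arrays in orange, a marker shape for each replicate number and lines at the group means (n = 3). Tgfb2 (dark adapted 7.67 to 7.86, light damaged 8.70 to 8.90) and Id1 (7.38 to 7.76 and 8.36 to 8.67) are the members with the clearest gap between the groups.

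Tgfb2 encodes TGF-beta 2, a secreted ligand kept latent until it is released. Its brightest probe set (1423250_a_at) read 7.67, 7.86 and 7.75 in dark adapted and 8.70, 8.88 and 8.90 in light damaged replicates 1, 2 and 3. All light damaged values lay above all dark adapted ones, by a gap several times the spread within either group. The mean went from 7.76 ± 0.10 to 8.83 ± 0.11 (SD, n = 3 per group), which is 2.09-fold higher, at a log2 change of 1.06 ± 0.13 (SE) and adjusted p = 0.00501 in limma. Same-numbered arrays differed by 1.03, 1.01 and 1.15. The call held without each array in turn (adjusted p 0.0136 to 0.0397).

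Tgfb2 was read by 4 probe sets, 3 of them designed from the same transcript record and thus not independent. All 4 changes were positive, between 0.68 and 1.32, and in 3 the groups did not overlap, as in 8.99% of all probe sets with the light damaged values higher. Probe set 1450922_a_at read 8.17, 6.92 and 6.74 in dark adapted and 9.07, 8.20 and 8.51 in light damaged retinas. Its groups were apart only narrowly, because dark adapted replicate 1 was high. Probe set 1450923_at changed by 0.80 with overlap between the groups. Of the 4, 1 passed over all probe sets (adjusted p = 0.00965; the others 0.268 to 0.454), where 1.02% were called. With the replicate block all 4 passed (limma adjusted p 0.00215 to 0.0243), against 4.68% of all probe sets. The gene lost its call when its probe sets were averaged (0.96, adjusted p = 0.0725), when probe sets marked as matching several transcripts were left out so that 1450923_at stood for it (0.80, adjusted p = 0.334), and after reference centring (0.67, adjusted p = 0.0743).

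The other TGF-beta ligand genes gave small values. Tgfb1, the form made by many immune and vascular cells, read 5.96, 5.70 and 5.78 in dark adapted and 6.09, 5.79 and 5.80 in light damaged retinas. The groups overlapped, and all 6 values lay below the array medians. Its log2 change was 0.08, with a 95% interval of -0.25 to 0.41. Tgfb3 read 7.66, 7.28 and 7.17 against 7.60, 7.16 and 7.10, so that replicate 1 was the highest in both groups. The change was -0.08, with an interval of -0.52 to 0.35. These intervals end below the 0.77 at which that of the brightest Tgfb2 probe set begins. In the fit over probe sets, the intervals of the Tgfb2 probe sets 1450922_a_at, 1450923_at and 1438303_at begin at 0.42, 0.11 and 0.14. The last 2 overlap the intervals of Tgfb1 and Tgfb3, so the separation depends on the probe set.

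Bmp4, a BMP ligand that patterns the dorsal eye in development, read 5.46, 5.73 and 5.53 in dark adapted and 5.67, 6.02 and 5.58 in light damaged retinas. These values also lay below the array medians and overlapped between the groups (change 0.18, interval -0.18 to 0.55). Inhba, which encodes the activin A subunit, read 7.37, 7.41 and 7.49 against 7.27, 7.38 and 7.96. Light damaged replicate 3 was above all others and the remaining light damaged values were within or below the dark adapted range. Its change was 0.11 (interval -0.32 to 0.55), and it was -0.10 without that array. The second probe sets of Tgfb1 and Inhba changed by 0.10 and 0.11.

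The receptor genes did not pass the test. Tgfbr1, the type I receptor kinase, read 8.18, 7.55 and 7.32 in dark adapted and 8.27, 7.61 and 7.52 in light damaged retinas. Replicate 1 was again the highest in both groups, and same-numbered arrays differed by 0.08, 0.06 and 0.20. The change of 0.11 had an interval of -0.50 to 0.73, and of -0.12 to 0.35 with the replicate block. Its 2 other probe sets, designed from the same record, changed by 0.36 and 0.18, with overlap.

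Tgfbr2, the type II receptor kinase that binds the ligand, read 6.00, 6.14 and 6.23 against 6.10, 6.29 and 6.19 (change 0.07, interval -0.23 to 0.36). Its probe sets differed. Probe set 1426397_at read 5.79, 5.80 and 5.92 in dark adapted and 6.18, 6.25 and 6.21 in light damaged retinas, without overlap, and changed by 0.37 (limma adjusted p = 0.292, and 0.0914 with the replicate block). The dimmest probe set (1422019_at, 3.77 to 4.22, below the lower quartile of every array) changed by -0.12.

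**Figure D2:**
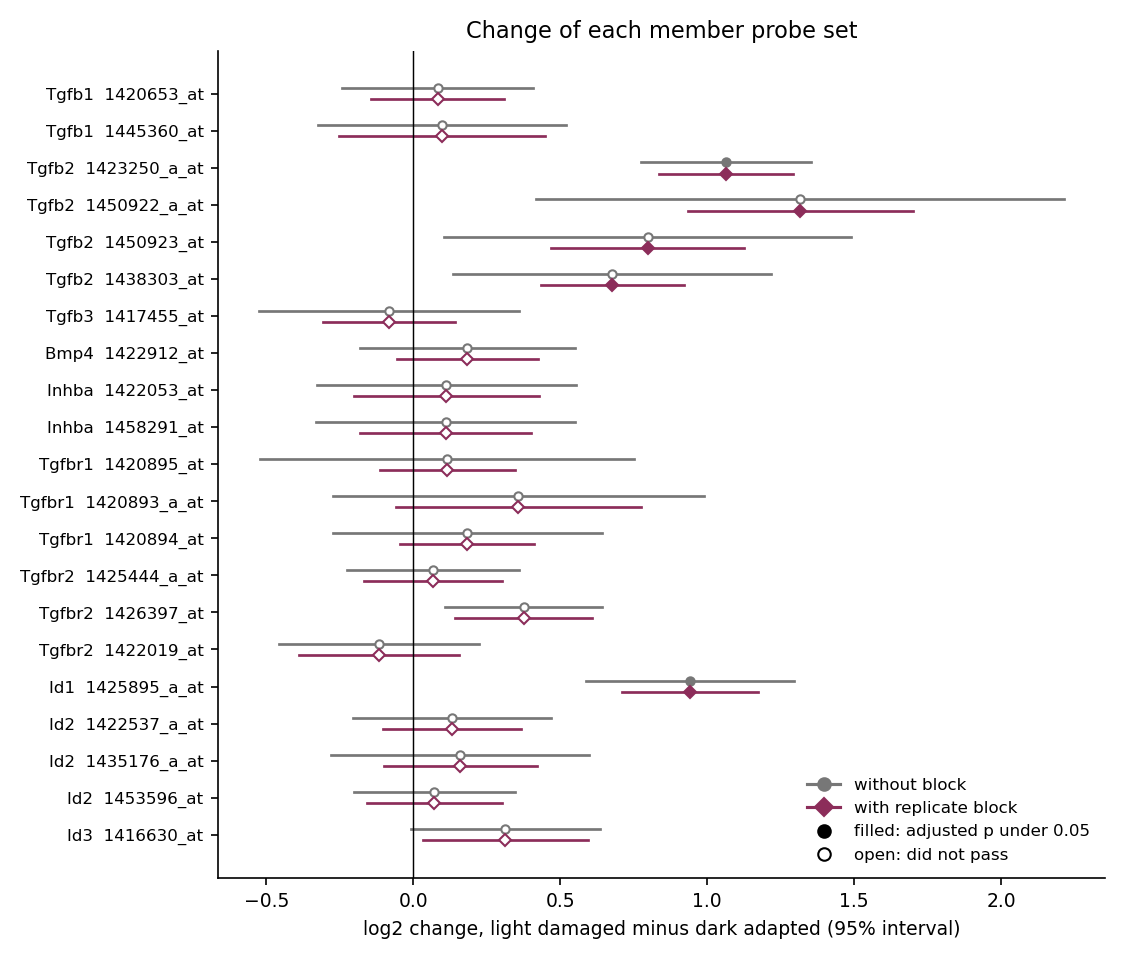
Log2 change (x axis, light damaged minus dark adapted) of each of the 21 member probe sets with its 95% interval, without the block (grey circles) and with the replicate block (purple diamonds), filled where the adjusted p over all probe sets was under 0.05. Without the block 1 probe set of Tgfb2 and that of Id1 are filled, and with it all 4 of Tgfb2 and that of Id1. Of all probe sets 1.02% passed without the block and 4.68% with it. On the deposited scale the changes of 19 of the 21 are above 0, against 52% of all probe sets. Several of the 21 read the same gene and are not independent.

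Among the Id genes Id1 rose. Its single probe set, which is marked as matching several transcripts, read 7.38, 7.76 and 7.48 in dark adapted retinas. In light damaged retinas it read 8.42, 8.67 and 8.36, so that the groups did not overlap. The mean went from 7.54 ± 0.20 to 8.48 ± 0.16 (SD, n = 3 per group), which is 1.92-fold higher, at a log2 change of 0.94 ± 0.15 (SE) and adjusted p = 0.0207 in limma (0.000609 with the replicate block). Same-numbered arrays differed by 1.04, 0.91 and 0.88. The call was lost in the fits that left out dark adapted replicate 3 (adjusted p = 0.0551) or light damaged replicate 1, 2 or 3 (0.0739, 0.102 and 0.0763), with changes between 0.85 and 1.05 over all 6 omissions. It was also lost when the values were quantile normalized again (0.84, adjusted p = 0.0512) and after reference centring (0.55, adjusted p = 0.113).

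Id3, which overlaps Id1 in function during vessel development, read 6.92, 7.06 and 6.87 in dark adapted and 7.09, 7.24 and 7.45 in light damaged retinas. The groups were just apart, as in 11.9% of all genes with light damaged values higher. The change was 0.31 (interval -0.01 to 0.64, adjusted p = 0.482 in limma and 0.158 with the replicate block), and -0.08 after reference centring. Id2 read 6.60, 6.87 and 6.98 against 6.82, 7.02 and 7.00, with overlap. Its change was 0.13 (interval -0.21 to 0.47), and its other probe sets changed by 0.16 and 0.07.

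The changes of related members were also set against each other on the same arrays, where a scaling of the whole array cancels. The pairs were picked after Tgfb2 and Id1 were seen to rise and their relatives not to pass, so the shifts restate those values as a description, with no test. Only the shift between the groups can be read, since levels of different probe sets are not comparable. The log2 difference of Id1 minus Id2 was 0.78, 0.89 and 0.50 in dark adapted and 1.60, 1.65 and 1.36 in light damaged retinas. Between the groups it shifted by 0.81, and Id1 minus Id3 shifted by 0.63. Tgfb2 minus Tgfb1 shifted by 0.98 and Tgfb2 minus Tgfb3 by 1.15. Of the differences between same-numbered arrays the smallest was replicate 3 of Id1 minus Id3, at 0.30.

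**Figure D3:**
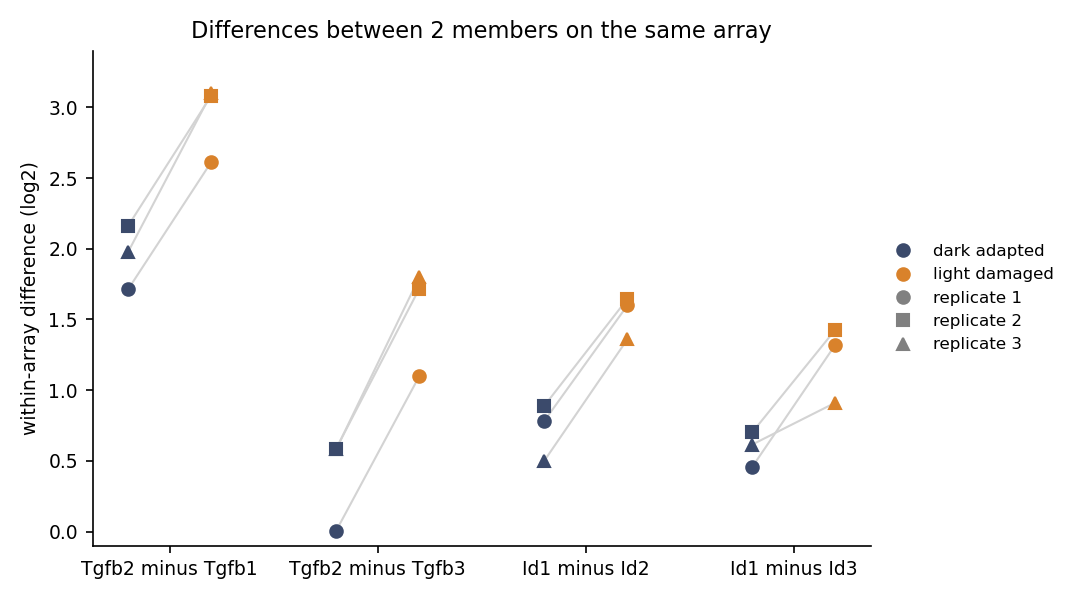
Log2 difference between 2 member genes on the same array (y axis), for dark adapted (blue) and light damaged (orange) arrays, with grey lines joining arrays of the same replicate number. Every light damaged point lies above all 3 dark adapted points of its comparison, with mean shifts of 0.98, 1.15, 0.81 and 0.63 from left to right.

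A further 106 genes of the pathway were listed by role, of which 96 were tested here. The list was chosen with earlier results of these data known, so its counts are a description and not a test of the pathway. Of these 6 rose and 0 fell in limma (6.25%, against 2.01% of all genes), with a median change of 0.08. The 6 were Junb, Klf10, Tgfbi, Tgm2 and Timp3 among 18 target genes and Bmp1 among 12 genes of latency, release and activation. No gene passed among 16 further ligands, 15 receptors and co-receptors, 8 Smad proteins and partners, and 27 inhibitors; at an unadjusted p under 0.05, 0, 3, 1 and 3 of these were higher and 0 lower, and of all genes 8.58% were higher. With the replicate block 16 rose and 1 fell (17.7%, against 8.87% of all genes). The count was 3 (Bmp1, Junb and Klf10) without dark adapted replicate 2, without light damaged replicate 2 and without light damaged replicate 3, and 2 after reference centring (Junb and Klf10).

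The target genes had a median change of 0.40. Junb, an AP-1 transcription factor gene that responds to many stimuli besides TGF-beta, rose 4.54-fold and Klf10, a zinc finger transcription factor induced early by TGF-beta, 3.05-fold. Klf10 read 5.08, 4.95 and 5.08 in dark adapted and 6.92, 6.33 and 6.69 in light damaged retinas, far apart, with a log2 change of 1.61 ± 0.17 (SE) and limma adjusted p = 0.00282. Its call held in every alternative in which it was tested. Tgfbi, a matrix protein named for its induction by TGF-beta, read 4.53, 4.62 and 5.12 against 5.60, 5.96 and 6.29. Its change of 1.20 (adjusted p = 0.0347 in limma) came from the brightest of 4 probe sets, which is marked as matching several transcripts, and the others changed by 0.12 to 0.28. Neither the mean of the 4 (0.44, adjusted p = 0.111) nor the probe set without such a mark (0.12, adjusted p = 0.892) passed in limma. Tgm2, the tissue transglutaminase that cross-links matrix, changed by 0.84 (adjusted p = 0.0457 in limma) and Timp3, a metalloprotease inhibitor, by 0.71 (0.0495). The 6 probe sets of Tgm2 changed by 0.05 to 1.32, and 2 passed over all probe sets, where 1.02% did. The one used here did not pass there (limma adjusted p = 0.0765). The 4 of Timp3, designed from the same record, changed by 0.56 to 0.71, and 0 passed over all probe sets. In limma without single arrays the calls of Tgfbi, Tgm2 and Timp3 held in 2, 1 and 1 of 6 fits, with adjusted p up to 0.156, 0.199 and 0.206.

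Bmp1 is a metalloprotease, not a BMP ligand, that matures collagen and cleaves the BMP inhibitor chordin and the latent TGF-beta complex. It read 6.89, 7.22 and 7.16 in dark adapted and 8.07, 8.22 and 8.37 in light damaged retinas. The groups were apart by more than their spread, with a 2.19-fold rise, a log2 change of 1.13 ± 0.15 (SE) and adjusted p = 0.00693 in limma. Its other probe sets changed by 1.78 and by -0.03. Bmp1 kept its call without each array in turn, and lost it after reference centring (0.74, adjusted p = 0.0796).

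In roles without a call, the gene with the smallest p is given. Smad3, the Smad of TGF-beta and activin signals, read 8.47, 8.18 and 8.21 against 8.90, 8.92 and 8.90. Its 3 probe sets, 2 of them designed from the same record, had non-overlapping groups, as 8.99% of all probe sets did with light damaged values higher. Their changes were 0.55 to 0.63 (adjusted p = 0.0589 in limma over genes, and 0.00819 with the replicate block). Acvr1, a type I receptor of BMPs, changed by 0.68 (0.0907, and 0.00727 with the block), although another of its probe sets gave -0.14. Tgif1, a corepressor that binds Smad2, changed by 0.61 (0.151, and 0.0131 with the block). Nodal, a ligand of early development, had a change of 0.17 (adjusted p = 0.856). The inhibitory Smad genes Smad6 and Smad7, induced by BMP and TGF-beta as feedback and named here after their values were seen, had changes of 0.10 and 0.03.

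**Figure D4:**
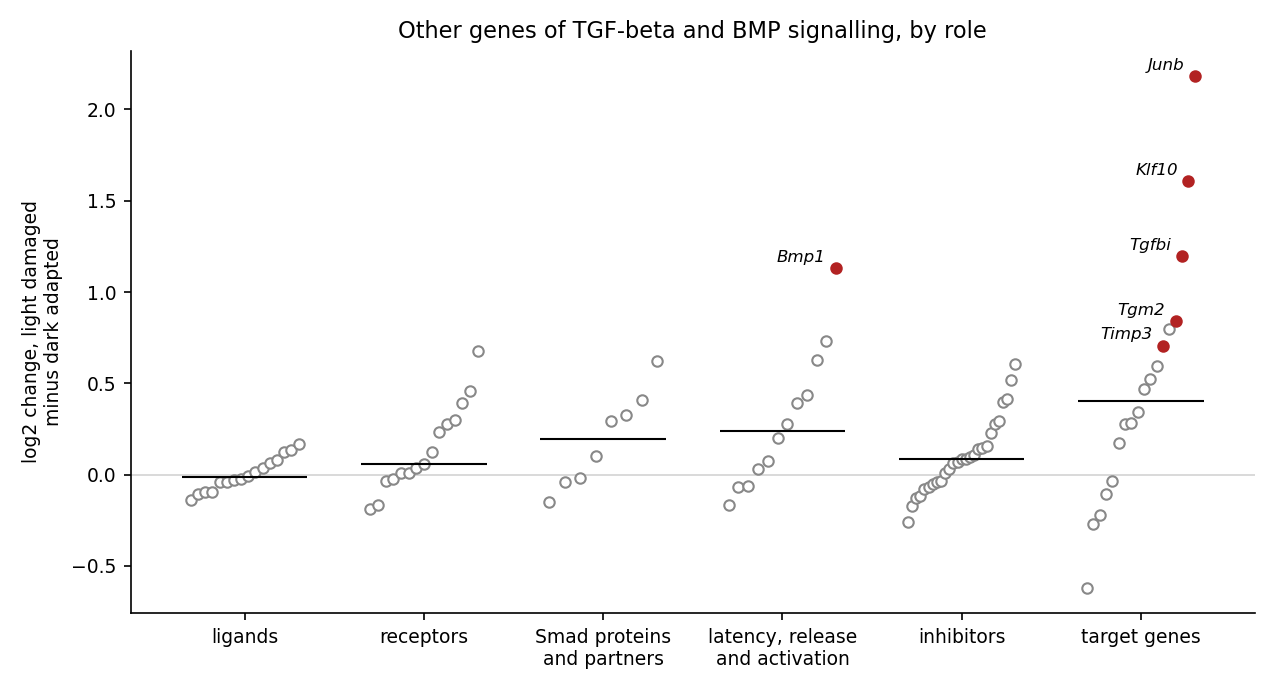
Log2 change (y axis, light damaged minus dark adapted) of the 96 further pathway genes, grouped by role and ordered by change within a role, with a black line at each role's median and filled red points where the limma adjusted p was under 0.05. The 6 red points are 5 target genes, up to Junb at 2.18, and Bmp1 at 1.13, and the ligands stay between -0.14 and 0.17.

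Over the 6 arrays, the profiles most like those of the members were found among 18192 other genes, by the mean absolute difference of values taken relative to each gene's dark adapted mean. The nearest to Tgfb2 were Tspo, a mitochondrial outer membrane protein (0.03), the histone gene H2aj (0.04) and the chemokine gene Ccl12 (0.05). Nearest to Id1 were Sec61a1, of the endoplasmic reticulum translocon (0.06), Cmtm3 (0.08) and H2aj (0.08). Of the receptors, which did not pass, Tgfbr2 had the smaller p and was nearest to Cyp2c23, Pla1a and Tafa4, whose changes were 0.07, 0.04 and 0.09.

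Markers of the cells in the samples are given beside these values. The lists were chosen with earlier results of these data known, so their counts are a description. Of all genes 2.01% were called without the block and 8.87% with it. In limma without the block 11% had an unadjusted p under 0.05, and 8.58% were higher at that p. Ranges are the mean log2 level of a list over the arrays of a group, dark adapted first. Of 6 rod markers none passed in limma (0 higher and 4 lower at an unadjusted p under 0.05), and with the replicate block Cnga1, Pde6b and Rom1 fell. Their mean was 12.12 to 12.58 and 11.69 to 12.07, which places these retinal genes near the top of the arrays' range of 3.30 to 13.89. The 8 genes listed for reactive glia were Gfap, Lcn2, Osmr, Cd44, Serpina3n, Timp1, Edn2 and Steap4. Of these 7 rose, all but Steap4, and 8 with the block (6.30 to 6.59 and 8.80 to 9.01). Which cells carried their RNA was not tested. The Müller glia list moved in both directions (9.72 to 10.06 and 9.84 to 10.23). Of its 8 genes Vim rose, 3 were higher and 1 lower at an unadjusted p under 0.05, and with the block Vim, Kcnj10 (0.77) and Slc1a3 (0.66) rose while Glul (-0.99) and Rlbp1 (-0.50) fell. Of 8 microglia and macrophage genes (5.94 to 6.12 and 6.27 to 6.41) Cd68 rose, with 2 higher and 1 lower at an unadjusted p under 0.05. With the block C1qa (1.21) rose as well and P2ry12 (-0.48) fell.

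No gene passed without the block among 8 each of endothelium (6.61 to 6.81 and 6.79 to 6.85), pericyte and smooth muscle (6.64 to 6.93 and 6.69 to 7.02), fibroblast (6.51 to 6.64 and 6.49 to 6.66), retinal pigment epithelium (6.96 to 7.04 and 6.91 to 7.44) and lens (9.38 to 10.81 and 9.19 to 10.73), or among 4 of blood (5.24 to 5.62 and 5.20 to 5.49). At an unadjusted p under 0.05 limma gave 1 higher in endothelium, 1 higher in retinal pigment epithelium and 0 in the others. With the block Kdr (0.44) rose in the endothelium list and Ttr (0.99) in that of pigment epithelium, and the lens genes Bfsp1 (-1.12) and Lim2 (-0.68) fell. The mean of the lens list was highest in replicate 3 of both groups, although Bfsp2 was lowest in that replicate among the dark adapted arrays (6.59). The genes named for the block were picked by its calls, which took in 8.87% of all genes. The brightest gene of the fibroblast list was Thy1 (means 9.78 and 9.84), and of the pigment epithelium list Otx2 (9.61 and 9.34). Both raise the mean of their list, and whether other retinal cells carry their RNA was not tested. RMA values have no zero, so no marker can be called absent. The part of these cells in the values of Tgfb2, Id1 and the pathway genes was not tested.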

How the data were processed

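Total RNA of BALB/c retinas was measured on 6 Affymetrix arrays. The deposited log2 values were made by the authors with RMA, per the submitters' processing notes, without a version in the sources used here. RMA corrects background, quantile normalizes between arrays and summarises probes, so a change in total RNA is not seen and dim probe sets are compressed. Of 45101 probe sets 64 were controls, 34945 were assigned to 1 gene, 932 to several and 9160 to none by the platform annotation; 34741 matched RefSeq (GRCm38.p6) by Entrez identifier, which changed 0 symbols.

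Each gene was taken by its probe set with the highest mean among those assigned to it alone (18193 genes), and each probe set was also fitted (45037). The contrast was fitted by lmFit and eBayes (no trend) of limma 3.58.1 under R 4.3.3. P-values were adjusted by Benjamini-Hochberg across every feature in the fit, and calls were made at 0.05. The script was tested on simulated data. Levels were not filtered. Intervals are 95% limma intervals. The alternatives were a replicate block, renewed quantile normalization, centring on 6 reference genes, a filter at the median level, a prior trend, other probe set choices and leaving out each array.

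The titles number replicates 1 to 3 in both groups. Deviations from group means correlated at 0.746, 0.629 and 0.447 for same-numbered arrays and at -0.486 to 0.0292 otherwise. Deviations within a group cancel, so high values for same-numbered arrays lower the others, which are not separate evidence. Same-numbered arrays were treated as pairs in the replicate block and not in the main fit. This rests on the values, as no label states it. Where the block changed the call of a named gene, this is stated.

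Named by a rule were the 10 members, up to 12 pathway genes past the threshold without overlap (6 qualified), the gene with the smallest p in roles without one, 3 nearest profiles, and extremes of the marker lists. Smad6, Smad7, genes called only with the block and some further list genes were named after their values were seen. The members and lists were chosen with earlier results of these data known. Genes listed but without a probe set of their own were not analysed here.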

Additional observations from a re-analysis of the deposited data

How the results depend on the processing

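Of the 6 reference genes, whose mean change was 0.39, Rplp0 was itself called higher (1.20, limma adjusted p = 0.00441). Actb changed by 0.70 (limma adjusted p = 0.0910, and 0.0112 with the block). Centring on these genes moved the median change of all genes from 0.03 to -0.36. It left 0 member genes, 0 member probe sets and 2 pathway genes called, and 132 genes higher and 438 lower of 570, against 316 and 49 of 365. By construction it turned the sign of Tgfb1 (-0.31), Bmp4 (-0.21), Inhba (-0.28), Tgfbr1 (-0.28), Tgfbr2 (-0.32), Id2 (-0.26) and Id3 (-0.078). Quantile normalization again left 1 member gene and 1 member probe set, with 327 genes higher and 162 lower. Averaging the probe sets of each gene left 1 member gene, Id1. Leaving out probe sets marked as matching several transcripts, where a gene had others, also left only Id1. The single probe set of Id1 carries this mark and was kept, so its change was the same in both and neither setting checks it. The replicate block gave 17 pathway genes, 5 member probe sets and 1613 genes, and changed no call among the member genes. Without 1 array the counts were 1 to 2 member genes, 0 to 2 member probe sets, 3 to 6 pathway genes and 151 to 417 of all genes. The changes then ranged from -0.014 to 0.15 for Tgfb1, -0.24 to 0.062 for Tgfb3, -0.10 to 0.24 for Inhba and -0.12 to 0.36 for Tgfbr1. The filter at the median level left 7 members to test. Dim probe sets, such as those of Tgfb1 and Bmp4, may understate a change. Further causes of these shifts were not tested.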

Other observations

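With the replicate block 11 pathway genes were called in limma that were not called without it, named here after their values were seen. Those that rose were the integrin genes Itgav (0.73, adjusted p = 0.00354) and Itgb8 (0.63, 0.00657), whose products form a receptor that releases latent TGF-beta, the receptor gene Acvr1 and the co-receptor gene Tgfbr3 (0.46, 0.0362), Smad3, the corepressor genes Tgif1 and Tgif2 (0.52, 0.0149), and the target genes Col4a1 (0.80, 0.00255), Cdkn2b (0.59, 0.0107) and Cdkn1a (0.47, 0.0239). The last pair encode cell cycle inhibitors. Single probe sets differed for some of these genes. The 2 of Tgfbr3 changed by -0.31 and 0.46, and 0 of them were called with the block over all probe sets. The 5 of Itgav changed by -0.015 to 0.94, and 2 were called. Over all genes the block raised the share called from 2.01% to 8.87%.

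Ccn2, a matrix-associated protein gene widely used as a readout of TGF-beta, went the other way. It read 7.03, 6.33 and 8.06 in dark adapted and 6.76, 5.86 and 6.94 in light damaged retinas, with overlap between the groups. The same-numbered differences were -0.28, -0.47 and -1.12, with a mean of -0.62 (limma adjusted p = 0.0398 with the block and 0.745 without it). Dark adapted replicate 3 was the highest array and gave the largest of the 3 differences.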
